A study of Arabidopsis thaliana with 6 samples.

Results

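Small heat shock proteins of the plant cytosol are chaperones without ATPase activity that hold unfolding proteins in a soluble state. The locus list used here names 8 genes of cytosolic class I or II in Arabidopsis thaliana, called the cytosolic genes below. Of these, 6 had a row among the 21430 probe sets of the table and 2 (AT1G59860 and AT1G07400) had none and were not analysed here. The 6 measured genes were 4 of the 6 listed class I genes, HSP17.4 (AT3G46230), HSP17.6C (AT1G53540), HSP17.6B (AT2G29500) and HSP18.2 (AT5G59720), and both class II genes, HSP17.6A (AT5G12030) and HSP17.6II (AT5G12020). They were taken by locus identifier, from a list drawn up with earlier results of these data known, and the names HSP17.6C and HSP17.6B come from that list because the gene table gives only the loci.

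Proteins of this family carry an alpha-crystallin domain and assemble into oligomers, and class I and class II are separate cytosolic subfamilies. Substrates that they bind can be refolded by HSP70 chaperones with the disaggregase HSP101, and their genes are classic targets of heat shock factors, which bind heat shock elements in promoters. In Arabidopsis they are known for very low transcript levels in unstressed vegetative tissue, strong induction by heat, and accumulation during seed maturation.

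All plants were wild-type Columbia-0, grown from 5 seeds per well in liquid medium with sucrose. The recorded temperature was the same for both groups. At 7 days they received hydrogen peroxide (H2O2), a reactive oxygen species, to 10 mM, or an equal volume of water (mock), and were collected 24 h later. Each group had 3 replicates, and each was RNA from a pool of 4 to 5 plants on an Affymetrix array of its own. The labels name both leaf and seedling as the material and leave unsaid whether the pools stem from separate cultures, and p-values here reflect the variation among the pooled samples, some of which may be technical.

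The 6 arrays had median log2 values of 5.66 to 5.74. Leaf genes were high in mock, with means of 12.40 to 12.81 for the 3 of 6 listed that were measured. Of 6 root genes, PYK10 had a mock mean of 12.02, XTH14, PRP3 and CASP1 lay at 8.86, 8.53 and 8.04, and CASP4 and MRN1 were low, at 4.28 and 3.95. In a pool, fewer cells of a type and less RNA per cell cannot be told apart. Of all 21430 probe sets, 45.0% passed an adjusted p of 0.05 in limma, 18.2% as higher in H2O2 and 26.7% as lower. Higher probe sets made up 40.6% of those that passed, and 60.8% after centring on 7 reference genes. The median change over all probe sets was then 0.11 on the log2 scale in place of -0.04. Before centring, 2 of the 7 reference genes themselves passed as lower and 5 did not pass, with changes of -0.48 to 0.08. With that centring the changes of the cytosolic genes given below ran from 3.87 to 9.21 in place of 3.73 to 9.07.

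The comparison asks how far these chaperone transcripts differed 24 h after H2O2 was added. All 6 measured small heat shock protein genes of cytosolic class I or II rose, by 3.73 to 9.07 on the log2 scale (median 8.38, against -0.04 for all probe sets). Mock means were 2.52 to 4.43 and H2O2 means 8.17 to 12.25. HSP18.2 rose least. For each gene the 3 H2O2 arrays lay above all 3 mock arrays, which was the case for 22.2% of all probe sets, and the 6 of 6 that passed as higher stand beside the 18.2% given above.

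HSP17.6A, a class II gene, read 2.54, 2.76 and 2.89 on the mock arrays and 11.89, 11.68 and 11.82 on the H2O2 arrays (log2 values). Its lowest H2O2 array stood 8.79 above its highest mock array. The change was 9.07 (SE 0.11, limma adjusted p = 2.91e-10), the largest of all probe sets.

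HSP17.6II, the other class II gene, read 2.62, 2.91 and 2.63 in mock and 11.08, 11.07 and 11.28 in H2O2. The mock arrays spread over 0.29 and the H2O2 arrays over 0.20, and 8.17 lay between the groups. Its change of 8.43 (SE 0.10, limma adjusted p = 3.07e-10) was the third largest on the array.

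HSP17.4, a class I gene, read 4.01, 3.65 and 3.53 in mock and 12.27, 12.20 and 12.29 in H2O2. The treated arrays were close together, with a range of 0.09, whereas the mock arrays spread over 0.48. Its change was 8.52 (SE 0.12, limma adjusted p = 4.99e-10).

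HSP17.6C, also of class I, read 2.32, 2.63 and 2.60 in mock and 10.75, 11.00 and 10.82 in H2O2. It had the lowest mock mean of the 6 genes, 2.52 ± 0.17 (SD, n = 3), and an H2O2 mean of 10.85 ± 0.13 (SD, n = 3). The change was 8.34 (SE 0.11, limma adjusted p = 3.70e-10).

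HSP17.6B, the next class I gene, read 3.60, 4.10 and 4.10 in mock and 10.64, 10.54 and 10.56 in H2O2. The first mock array was the low one, 0.50 under the others, and no array of either group came within 6.44 of the other group. The gene rose by 6.65 (SE 0.13, limma adjusted p = 2.53e-09).

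HSP18.2, the remaining measured class I gene, read 4.68, 4.17 and 4.45 in mock and 8.10, 8.26 and 8.14 in H2O2. Its mock values were the highest and its H2O2 values the lowest of the 6, although values of different probe sets do not compare transcript amounts, because each depends on its probes. The groups were 3.42 apart, and the change was 3.73 (SE 0.13, limma adjusted p = 5.78e-08), a 13.3-fold rise.

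**Figure D1:**
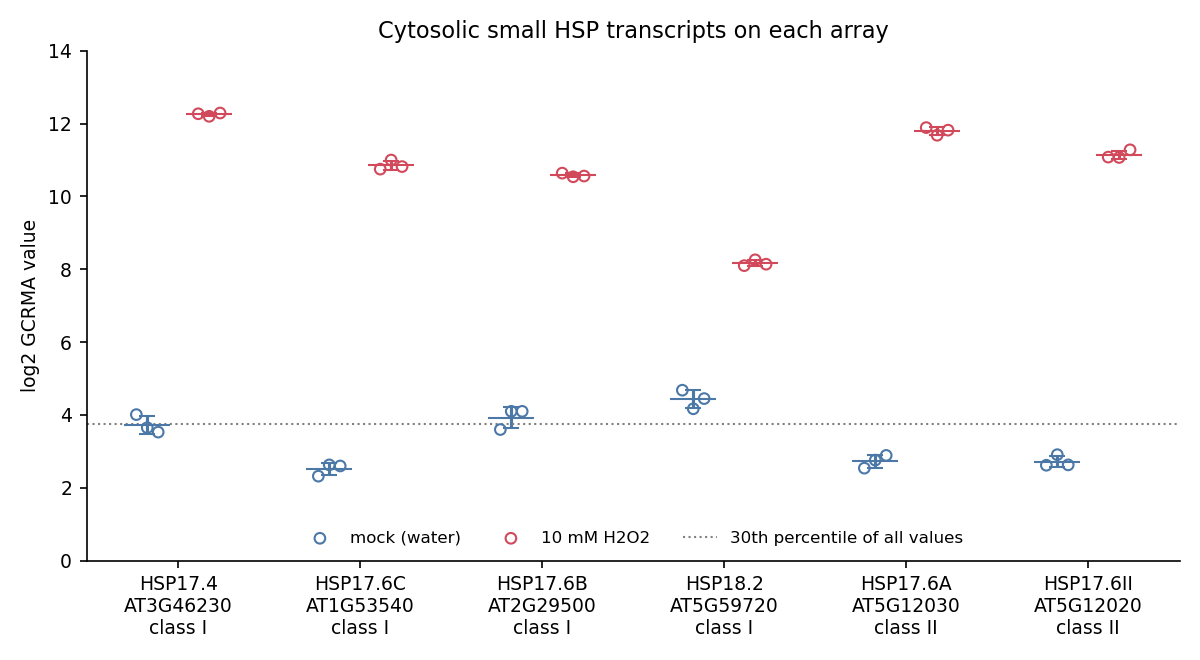
Log2 GCRMA values of the 6 measured cytosolic small heat shock protein genes, with mock arrays in blue and H2O2 arrays in red. Circles are arrays, horizontal marks are means with SD bars (n = 3 each), and the dotted line is the 30th percentile of all values, 3.74. No mock array reaches an H2O2 array of the same gene, and HSP18.2 has the smallest gap, 3.42.

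Each of the 6 genes rose at least 8-fold, as did 0.714% of all probe sets, and 5 of the 6 rose at least 64-fold, as did 0.0840% of all. HSP17.6A, HSP17.4, HSP17.6II and HSP17.6C held the 4 largest changes on the array, HSP17.6B was the 12th and HSP18.2 the 86th.

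The spread between replicates was small beside these changes. Averaged over the 6 genes, the mock arrays read 3.29, 3.37 and 3.37 and the H2O2 arrays 10.79, 10.79 and 10.82. The SD was 0.16 to 0.29 in mock and 0.04 to 0.13 in H2O2. No array was high or low for all of them. Mock replicate 1 gave the lowest mock value for 4 of the 6 genes but the highest for HSP17.4 and HSP18.2, and H2O2 replicate 2 gave the lowest treated value for 4 genes but the highest for HSP17.6C and HSP18.2. Leaving out any 1 array kept the change of HSP18.2 between 3.60 and 3.85 and that of HSP17.6A between 8.97 and 9.14.

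**Figure D2:**
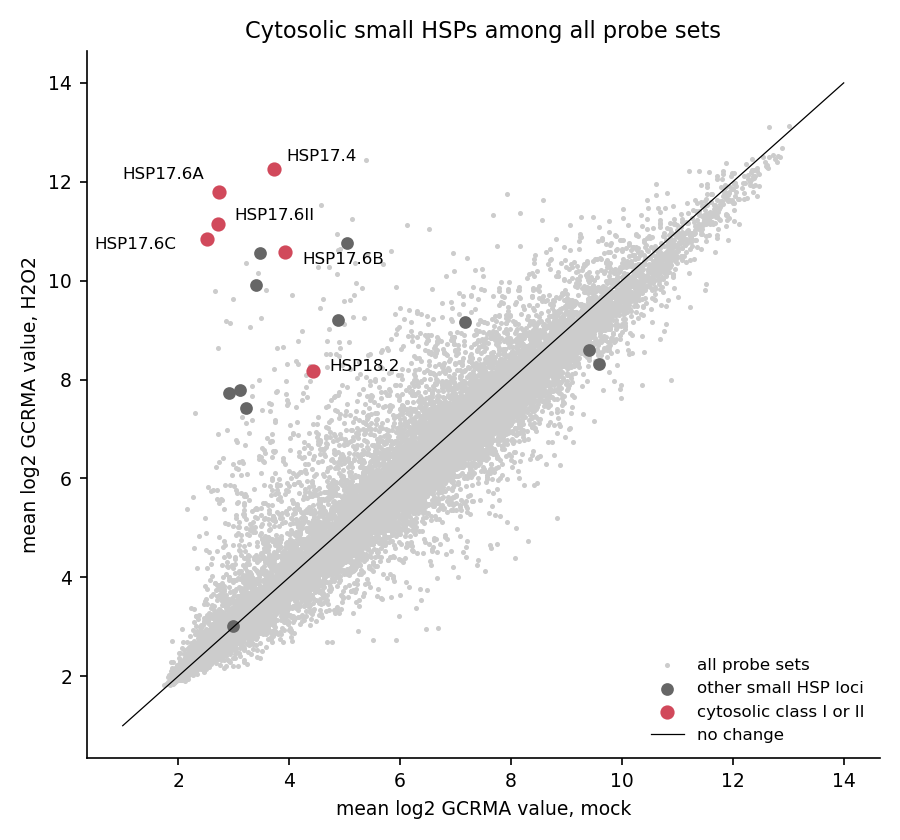
Mean log2 GCRMA value in H2O2 against that in mock for all 21430 probe sets (grey), other small heat shock protein loci (dark grey) and the 6 cytosolic genes (red), with the line of no change. HSP17.6A, HSP17.4, HSP17.6II and HSP17.6C, with changes of 8.34 to 9.07, lie farthest above the line of all probe sets.

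Several of these folds start from the bottom of the scale, where GCRMA values say little about a transcript's level. The mock means of HSP17.6C, HSP17.6A, HSP17.6II and HSP17.4 lay under 3.74, the 30th percentile of all values. With every lower value raised to 3.74, HSP17.6A rose 266-fold in place of 536-fold, HSP17.6II 169-fold in place of 344-fold and HSP17.6C 138-fold in place of 324-fold. The folds of the other members moved less, from 368-fold to 343-fold for HSP17.4 and from 100-fold to 97.0-fold for HSP17.6B, and HSP18.2 stayed at 13.3-fold. The largest change among the 6 was then that of HSP17.4, at 8.42, before HSP17.6A, at 8.05, and HSP17.4 exceeded HSP17.6II by 1.02 and HSP17.6C by 1.31. No interval was computed for these differences. With the mock values of HSP17.6A, HSP17.6II and HSP17.6C all set to 3.74, this order mostly follows H2O2 values, which do not compare transcript amounts between probe sets.

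The order of the changes was read from per-array differences between genes, for all 15 pairs, with 95% intervals that are not adjusted over the pairs. The interval left out 0 for 11 pairs, and for 10 with the replicate number as a block. HSP17.6A and HSP17.4 were not told apart (difference in change 0.54, interval -0.15 to 1.23, and -0.66 to 1.74 with the block, with HSP17.6A ahead in 3 of 3 same-numbered pairs of arrays), nor were HSP17.4 and HSP17.6II (0.10, -0.46 to 0.66), HSP17.4 and HSP17.6C (0.19, -0.53 to 0.90), or HSP17.6II and HSP17.6C (0.09, -0.31 to 0.48). HSP17.6B came below HSP17.6C by 1.69 (1.36 to 2.03), a difference of 0.51 with low values raised. HSP18.2 came below HSP17.6B by 2.92 (2.06 to 3.77), and by 2.87 with low values raised. Since probe sets differ in how they compress signal, such differences describe these probe sets and may not equal differences in transcript fold.

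The class II genes are next to each other in the RefSeq gene order of assembly TAIR10.1, with no other locus between them. HSP17.6A rose by 0.64 more than HSP17.6II (interval 0.23 to 1.05). The difference was 0.65 with low values raised, where all mock values of both genes were the same and only the H2O2 values counted. With the replicate number as a block this interval held 0 (-0.13 to 1.41), although HSP17.6A was ahead in 3 of 3 same-numbered pairs. The locus on the other side of HSP17.6II, AT5G12010, read 7.04, 6.93 and 6.79 in mock and 8.75, 8.81 and 8.80 in H2O2, a rise of 1.87 (SE 0.09). The locus beyond HSP17.6A, AT5G12040, was lower by 0.29 (SE 0.08).

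Among the 10 nearest measured loci that flank the 6 genes, 2 passed as higher, 2 as lower and 6 did not pass, with a median change of 0.02, and shares of 18.2% higher and 26.7% lower among all probe sets. The largest change was that of GSTU1 (AT2G29490), a tau glutathione transferase gene directly beside HSP17.6B, which rose by 3.61 (SE 0.12). On the other side of HSP17.6B, AT2G29510 had a change of -0.01. The flanks of HSP17.4, AT3G46220 and AT3G46240, had changes of 0.05 and -0.03, each with 1 locus without a row in between. Beside HSP17.6C, AT1G53530 was lower by 0.51, and the nearest measured locus on the other side, AT1G53560, only the 7th locus away, had a change of -0.09. Those of HSP18.2 were VIP2 (AT5G59710), at 0.07, and EXO70H7 (AT5G59730), at 0.45, whose mock array of replicate 1 read 7.35, within the range of its H2O2 arrays, and neither passed.

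**Figure D3:**
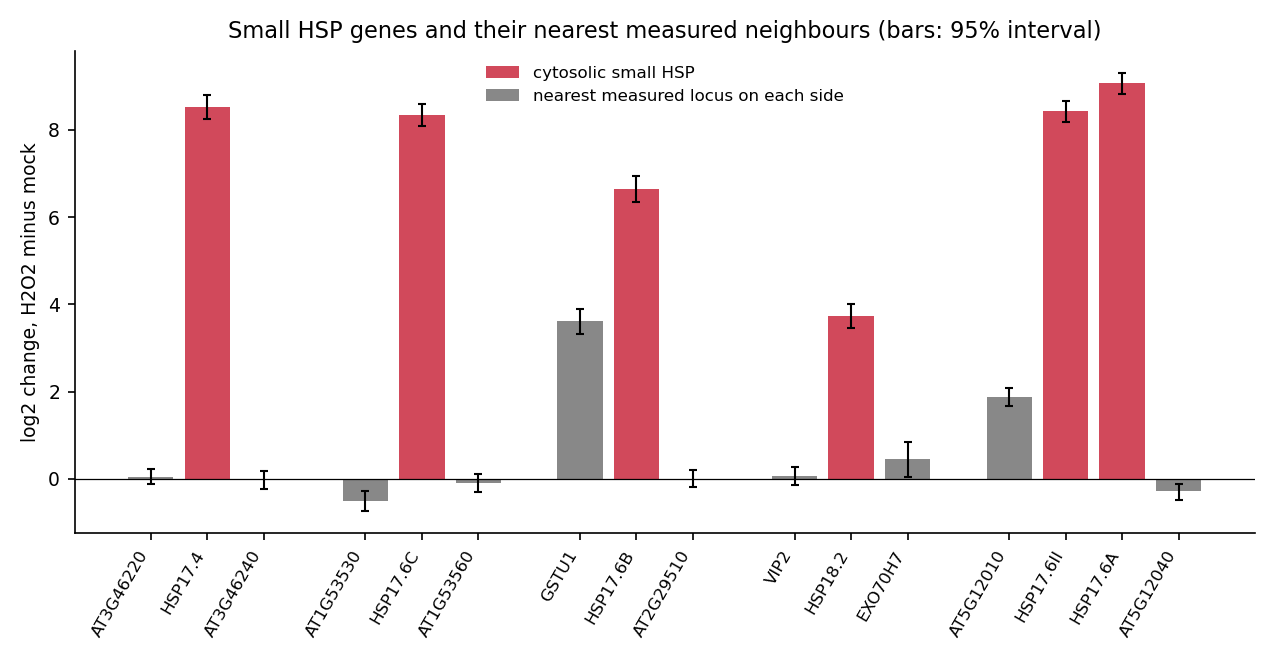
Log2 change, H2O2 minus mock, of each cytosolic small heat shock protein gene (red) and of the nearest measured locus on each side (grey), in gene order, with 95% intervals. The red bars run from 3.73 to 9.07, and the only grey bars above 1 are GSTU1, at 3.61, and AT5G12010, at 1.87.

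Other loci of the family did not all move this way. Of 11 other small heat shock protein loci, all measured, 8 rose, 2 fell and 1 did not pass, with a median change of 4.33. Among all probe sets, 18.2% passed as higher. The largest rise was that of AT5G51440, from 3.48 ± 0.15 in mock to 10.55 ± 0.14 in H2O2 (SD, n = 3 each), a change of 7.07 that lay between those of HSP17.6C and HSP17.6B. HSP23.6-MITO (AT4G25200), a mitochondrial family member, rose by 6.52, AT1G54050 by 5.72, AT1G52560 by 4.81 and HSP21 (AT4G27670), a chloroplast member, by 4.67. AT5G37670 rose by 4.33, ATHSP22.0 (AT4G10250), a member of the endoplasmic reticulum, by 4.19, and AT2G19310 by 2.00. With low values raised, AT1G52560 rose by 3.99 and HSP21 by 4.05, and ATHSP22.0, at 3.68, came level with HSP18.2, at 3.73.

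The loci that fell, AT4G21870 and ACD32.1, had the highest mock means of the 11, 9.58 and 9.40. AT4G21870 read 9.76, 9.58 and 9.40 in mock and 8.15, 8.60 and 8.17 in H2O2, a change of -1.27 (SE 0.14, limma adjusted p = 8.87e-05). ACD32.1 (AT1G06460), an alpha-crystallin domain protein gene, read 9.40, 9.26 and 9.53 in mock and 8.63, 8.63 and 8.51 in H2O2, a change of -0.81 (SE 0.09, limma adjusted p = 0.000114). The groups did not overlap for either gene, as was the case in this direction for 31.8% of all probe sets, and 26.7% of all passed as lower. AT5G47600 stayed at the bottom of the scale in both groups, at 2.99 and 3.02, and its change of 0.03 did not pass (limma adjusted p = 0.875).

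**Figure D4:**
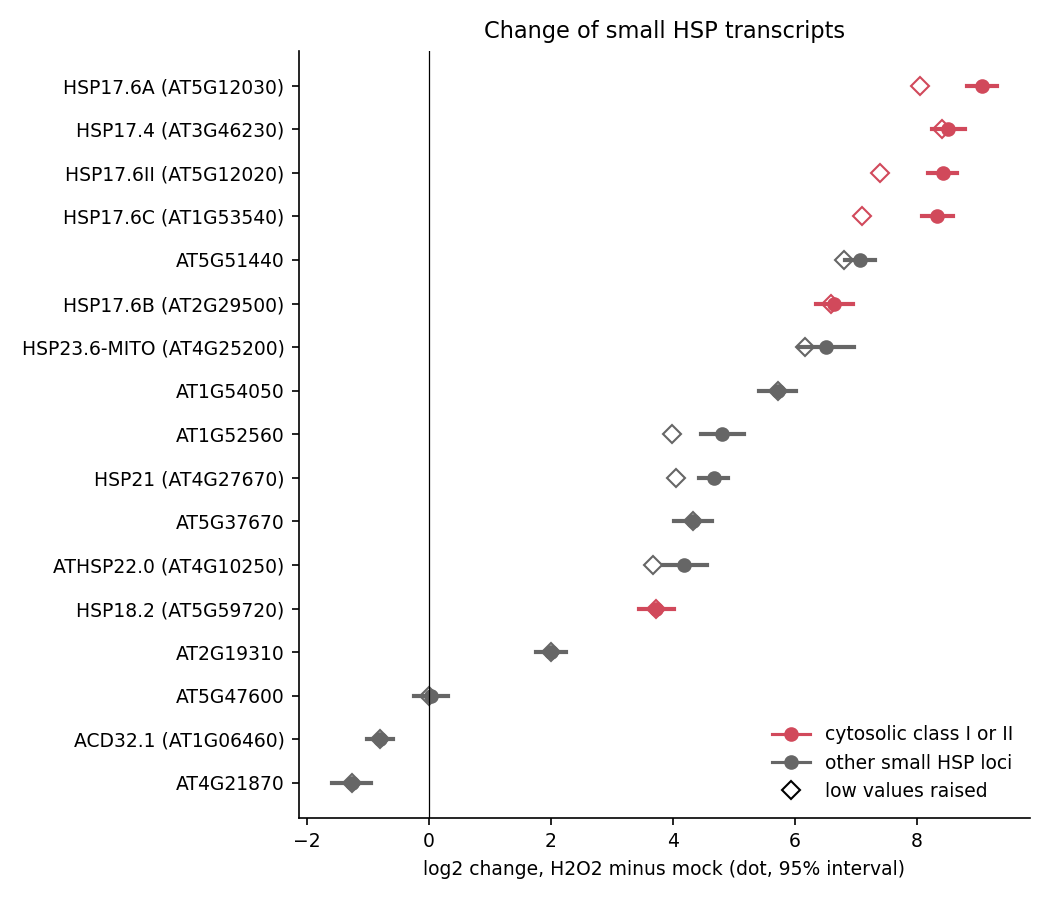
Log2 change, H2O2 minus mock, with 95% interval, for the 6 cytosolic class I or II genes (red) and 11 other small heat shock protein loci (grey), ordered by change, with open diamonds for the change after low values were raised to 3.74. The 4 largest changes are of cytosolic class I or II, HSP18.2 at 3.73 lies below 7 of the other loci (ATHSP22.0 among them only before low values were raised), and AT4G21870 and ACD32.1 lie below 0.

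A further list, called chaperone partners here, mixes HSP70, HSP90 and HSP101 genes with co-chaperone and other heat stress genes such as MBF1C. Not all of its products are known to work with small heat shock proteins. Of its genes, 19 of 20 measured rose (22 were listed), with a median change of 3.96, beside 18.2% higher among all probe sets, and 1, Hop1 (change 0.05), did not pass. HSP70 (AT3G12580) rose by 7.05, HSP90.1 (AT5G52640) by 6.94 and Hsp70b (AT1G16030) by 6.08. HSP101 (AT1G74310), the disaggregase, read 4.38, 4.73 and 4.43 in mock and 10.35, 10.17 and 10.33 in H2O2, a rise of 5.77 (SE 0.11). These changes fall between those of HSP18.2 and HSP17.6C.

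Some heat shock factors activate or repress small heat shock protein genes. Of the 21 heat shock factor genes, 13 rose, 1 fell and 7 did not pass, with a median change of 0.39. Among all probe sets, 18.2% passed as higher and 26.7% as lower. With low values raised 10 rose. HSFA2 (AT2G26150), an activator that is itself heat-induced, read 2.76, 2.87 and 3.16 in mock and 9.27, 9.05 and 9.13 in H2O2, a rise of 6.22 (SE 0.11), or 5.41 with low values raised. AT-HSFB2B (AT4G11660), HSFB2A (AT5G62020) and HSF A4A (AT4G18880) rose by 2.35, 2.34 and 2.08. The factor gene that fell was HSFC1 (AT3G24520), with a change of -0.75 and a call that ended without variance moderation (adjusted p = 0.0649). HSFC1 and Hop1 are named here with their values already known.

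**Figure D5:**
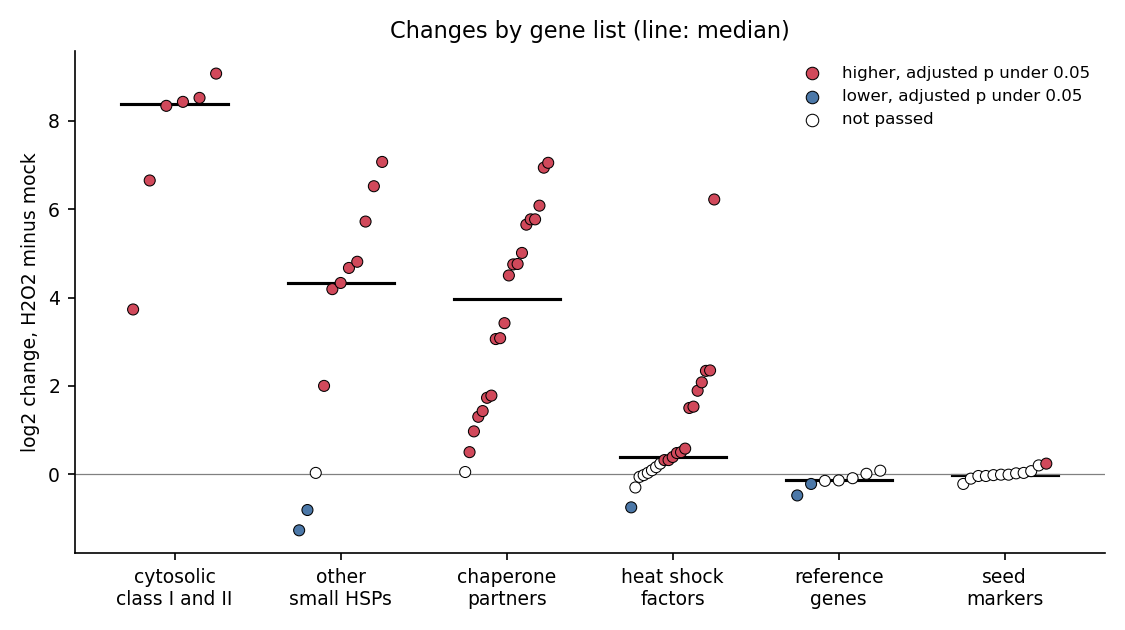
Log2 change, H2O2 minus mock, of every measured gene in 6 lists, with the list median as a line, red for genes that passed as higher, blue for those that passed as lower and white for the rest. The medians are 8.38 for the small heat shock proteins of cytosolic class I or II, 4.33 for other small heat shock proteins, 3.96 for chaperone partners, 0.39 for heat shock factors, -0.14 for reference genes and -0.01 for seed markers.

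Because these genes are also known from maturing seeds and the wells were sown with seeds, 12 seed storage, oil body and late embryogenesis genes were read beside them. Their mean log2 value was 2.53 to 2.58 on the mock arrays and 2.53 to 2.60 on the H2O2 arrays. No seed gene had a group mean above 3.05, which is under the 3.74 to which low values were raised, and 11 of the 12 did not pass. PAP85 (AT3G22640) was higher by 0.24 (limma adjusted p = 0.0427), a difference that vanished with low values raised. The root genes XTH14 (AT4G25820) and PRP3 (AT3G62680) were lower by 1.76 and 2.08 in H2O2 and MRN1 by 0.30, while PYK10, CASP1 and CASP4, with changes of -0.05, -0.30 and 0.16, did not pass, and the part of organ composition in the rise of the 6 genes was not tested. The 3 leaf genes were lower by 0.29 to 0.39. The calls in the seed, root and leaf lists stand beside 18.2% higher and 26.7% lower among all probe sets.

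The other loci whose values followed the mean of the 6 cytosolic genes most closely were found from the values on the 6 arrays, each taken relative to the locus's mock mean, by the root mean square difference. They were UGT74E2 (AT1G05680), a glucosyltransferase gene, at 0.25, PMZ (AT3G28210), a zinc finger protein gene, at 0.26, AT5G51440 at 0.30, HSP70 at 0.33 and HSP90.1 at 0.38. UGT74E2 read 2.70, 2.72 and 2.59 in mock and 9.86, 9.70 and 9.81 in H2O2. The cytosolic genes themselves lay 0.59 (HSP17.6B) to 2.64 (HSP18.2) from their own mean, so this measure mostly reflects the size of the rise.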

How the data were processed

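The deposited table holds 1 log2 GCRMA value for each locus and array, and GCRMA is named by the submitters' processing notes. This method adjusts background using probe base content, brings arrays to 1 distribution and combines the probes of a locus. Not given in the sources used here were its version, the array type, the probe definition and the build behind them, so no coordinates are printed and the RefSeq gene table of TAIR10.1 served only for names and gene order. Whether probes also read transcripts of near-identical family members is therefore unknown. The log2 scale was read from the range, 1.55 to 13.15. The table has no detection calls, and the number of arrays limits precision. No 2 arrays held identical values. Of all loci, 221 shared every value with another locus, none of them a cytosolic small heat shock protein gene. In the lists read here 1 gene did so, a heat shock factor gene counted among those that rose, and its values cannot be assigned to that locus alone.

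Groups came from the labels. All 21430 probe sets were fitted without a filter. No gene entered the fit by rising, but this does not undo the choice of members and lists with earlier results known. The fit was made in limma 3.58.1 (R 4.3.3) by lmFit with moderated variances from eBayes, as H2O2 minus mock (residual df 4, prior df 4.92). It used Benjamini-Hochberg adjustment over all probe sets and a threshold of 0.05. Symbols came from RefSeq for 21231 loci (199 not found). Of 8 reference genes 7 were measured. The fit was tested on simulated data. Figures were drawn with matplotlib 3.10.9.

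The labels number replicates alike in both groups. Deviations from group means correlated at 0.14, 0.18 and 0.16 for the same numbers and at -0.13 to -0.04 for others. Deviations cancel within each group, so the values for unlike numbers are no separate evidence. The numbers were treated as a possible pairing, and the fit was repeated with replicate number as a blocking term. SE and p-values of single genes above come from the fit without the block. With it, limma adjusted p-values of the cytosolic genes ran from 3.06e-08 to 1.3e-06.

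The members and lists were chosen with earlier results of these data known. Genes named were all cytosolic and other small heat shock protein loci, up to 4 per other list with the largest changes that passed, the flanking loci and the 5 most alike loci. Alternatives were each array left out, the replicate block, array weights, variances without moderation or with a trended, robust prior, centring on reference genes or on the median, quantile normalization, filters at the 30th and 50th percentile, and raising low values to the 30th percentile.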

Additional observations from a re-analysis of the deposited data

How the results depend on the processing

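Over 16 alternatives, none of the 96 values of the 6 cytosolic small heat shock protein genes changed its direction or its call. The filters used the mean over all 6 arrays, and their values add no support. At the 50th percentile, 5.72, each gene was kept only through its H2O2 arrays, since mock means were at most 4.43. At the 30th, 3.79, this held for HSP17.6A, HSP17.6II, HSP17.6C and HSP17.4. The fit with the replicate number as a block, which gave 9943 probe sets passing against 9637, changed no call of these genes or of the related lists. Taken within replicate numbers, an alternative chosen after seeing the data, 1 of 15 differences between their changes (HSP17.6A against HSP17.6II) no longer left out 0. Their median change was 7.26 with low values raised to the 30th percentile, which by construction shortens rises from low values, and 8.31 to 8.44 with 1 array left out. With reference gene centring 3668 probe sets were lower in place of 5728. With the filter at the 50th percentile, which leaves fewer genes tested, 5 other small heat shock protein loci and 7 heat shock factors were higher and 0 heat shock factors lower. Without variance moderation 0 heat shock factors were lower, and with 1 array left out 1 to 2 were, with 2 without mock replicate 1. Those 2 were HSFC1 and HSFA7A (AT3G51910), which then changed by -0.47 (limma adjusted p = 0.0133). The mock arrays of HSFA7A read 6.94, 7.31 and 7.57, lowest in replicate 1. All 17 single-gene values that changed their call, 12 losing and 5 gaining it, belonged to 7 heat shock factors, and none reversed. Of these factors the report names only HSFC1 and HSFA7A, each with its values already known. With 3 arrays a group, levels near the bottom of the scale limit every fold of HSP17.6A, HSP17.6II and HSP17.6C.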
